A study of Mus musculus with 6 samples.

Results

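Promoter sites at which FOXC2 was bound both in control and in injured podocytes are described here. A site is a FOXC2 ChIP-seq peak of the adriamycin (ADR) list that overlapped a peak of the PBS list by at least 1 bp and had its summit between 1000 bp upstream and 100 bp downstream of a transcription start site (TSS). There were 10592 such sites among the 40067 ADR peaks (26.4%), and they made up 39.1% of the 27112 ADR peaks shared with the PBS list. The sites were thus chosen by the measured peak calls of both conditions, and each was paired with the overlapping PBS peak whose summit was nearest.

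Podocytes were sorted by FACS from adult male mT/mG mice of mixed genetic background, in which Cre driven by a podocyte promoter turns on a green membrane reporter, and littermates were compared. The ADR group received 18 mg/kg ADR, a podocyte toxin, on days 0 and 7, the PBS group received PBS on the same days, and cells of both were collected on day 9. Chromatin was precipitated with the antibody Abcam b5060. Each group had 3 samples, which the authors pooled into 1 peak list, so differences between the lists carry no replicate error and no p-value is given. In sorted bulk cells, fewer cells with a bound site and less binding per cell cannot be told apart.

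FOXC2 is a forkhead transcription factor (TF) that podocytes, the epithelial cells of the glomerular filter, need for their differentiation and upkeep. A promoter is the stretch of DNA around a TSS where the general transcription machinery assembles, and most mouse promoters of widely used genes are rich in the dinucleotide CpG. Forkhead proteins recognise a core of the type TAAACA. WT1, the other main TF of podocytes, binds G-rich sequence through its zinc fingers, and GC boxes, ETS, NRF1, NFY and CRE sequences are the classical elements of CpG-rich promoters.

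The sequences of a few sites show what lay under the summits. Each is 101 bases of GRCm38, centered on the ADR summit, outside annotated exons and written 5′ to 3′ on the strand of the nearest transcript. Capitals mark matches, on either strand, to WT1 (GNGTGGGNG or GNGGGGGNG), GC box, KLF, ETS, NFY, NRF1, CRE, TEAD, AP-1, LMX1B and forkhead sequences, spelled out with their shares, and to E-box (TCACGTG), YY1 (AAGATGGC), BANP (TCTCGCGA), ZNF143 (CCCAGNATG) and CTCF. The first group holds sites with the highest folds in either list: *Mrc2* (chr11:105292488-105292588, plus strand) and *Gm13421* (chr2:27540299-27540399, plus).

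Mrc2: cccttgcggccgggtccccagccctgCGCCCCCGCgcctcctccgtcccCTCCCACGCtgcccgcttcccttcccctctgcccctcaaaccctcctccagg
Gm13421: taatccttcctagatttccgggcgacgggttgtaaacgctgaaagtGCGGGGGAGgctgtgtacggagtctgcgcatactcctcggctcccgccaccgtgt

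These windows each held a WT1 match, which was not so at every strong site: around the summit of *Amotl2*, the highest in ADR, a TEAD match lay but no WT1 match, and *Bcar3* had no match. The second group holds podocyte genes: *Nphs1* (chr7:30459512-30459612, plus), *Podxl* (chr6:31564005-31564105, minus), *Lmx1b* (chr2:33632356-33632456, minus) and *Htra1* (chr7:130982563-130982663, plus).

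Nphs1: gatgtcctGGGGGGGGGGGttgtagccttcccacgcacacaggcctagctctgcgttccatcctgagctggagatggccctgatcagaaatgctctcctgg
Podxl: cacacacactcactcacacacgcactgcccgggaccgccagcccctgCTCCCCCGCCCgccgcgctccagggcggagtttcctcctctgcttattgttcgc
Lmx1b: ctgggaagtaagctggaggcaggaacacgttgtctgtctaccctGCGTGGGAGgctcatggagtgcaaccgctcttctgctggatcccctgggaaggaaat
Htra1: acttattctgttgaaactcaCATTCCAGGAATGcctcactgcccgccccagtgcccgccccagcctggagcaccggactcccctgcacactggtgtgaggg

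The match at *Nphs1* was a run of G, that at *Lmx1b* the form with T, and *Htra1* instead held overlapping TEAD matches on opposite strands. The third group holds sites with the largest and smallest ratios between the lists: *Marc2* (chr1:184827292-184827392, minus), *P3h1* (chr4:119244545-119244645, plus) and *Tead4* (chr6:128275672-128275772, minus), which were higher in ADR, and *Hic1* (chr11:75170459-75170559, minus), which was higher in PBS.

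Marc2: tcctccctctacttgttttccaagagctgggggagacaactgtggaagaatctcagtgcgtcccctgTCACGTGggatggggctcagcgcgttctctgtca
P3h1: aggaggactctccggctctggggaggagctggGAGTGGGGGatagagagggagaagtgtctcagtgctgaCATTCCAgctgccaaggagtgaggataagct
Tead4: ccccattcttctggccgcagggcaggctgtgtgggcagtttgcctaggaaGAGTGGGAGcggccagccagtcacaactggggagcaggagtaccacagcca
Hic1: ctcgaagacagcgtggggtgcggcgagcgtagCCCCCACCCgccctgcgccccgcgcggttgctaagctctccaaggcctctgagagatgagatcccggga

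FOXC2 binding in promoters was shared between the conditions more often than binding elsewhere. Of the 11837 ADR peaks in promoters, 89.5% overlapped a PBS peak (95% Wilson interval 88.9% to 90.0%). The share was 58.5% among the 28230 ADR peaks outside promoters, a difference of 31.0 points (95% interval 30.2 to 31.8 points). It was 56.7% in introns and 59.5% in intergenic regions. Intervals cover counting error only, and read depth is not given in the lists. The difference was also present between peaks of like strength: of ADR peaks with a fold enrichment over the local control of 4 to 5, 74.6% were shared in promoters and 42.6% elsewhere. The gap narrowed with strength, to 98.6% and 87.1% at folds of 20 to 30 and to 99.4% and 96.4% above. Of the 13082 PBS promoter peaks, 81.8% were shared.

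Most sites matched a single PBS peak. There were 10434 distinct PBS partners, 407 sites overlapped more than 1 PBS peak, and 315 sites shared 157 PBS peaks among them. In 97.7% of pairs the PBS summit also lay in a promoter. The median distance between the ADR and PBS summits was 28 bp, and 69.5% of pairs had summits within 50 bp of each other. In 720 pairs (6.80%) the summits were over 200 bp apart, so that such pairs may compare neighbouring maxima within a broad region.

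The limits of the rule cut through a continuous range of values. Just inside the upstream limit lay sites of *Gm26877* and *Iqsec1* at -1000 bp (ADR folds 17.1 and 10.7, PBS folds 7.74 and 5.01) and of *5730585A16Rik* at -999 bp (29.97 and 16.4). Just outside it lay *Ptprv* (39.2 and 19.4), *St3gal1* (6.24 and 3.02) and *Ppp6r2* (10.4 and 12.2) at -1001 bp. At 100 bp downstream *4930505N22Rik*, *Endod1* and *Dck* had ADR folds of 9.11, 6.72 and 10.8 and PBS folds of 6.77, 8.24 and 8.33. At 101 bp *Bcas3*, *Cog1* and *Naa16* had ADR folds of 27.7, 4.32 and 6.79 and PBS folds of 13.1, 4.98 and 3.95. The smallest overlaps were 4 bp at *Klc4*, 7 bp at *Smad3* and 12 bp at *Tmem179b*, whereas ADR peaks at *Mtdh*, *Mgrn1* and *Ado* lay a few bp from a PBS peak without overlapping it.

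The sites clustered at the TSS itself. The median summit lay at -53 bp, counted from the nearest TSS with upstream negative (quartiles -162 and -1 bp), and 64.6% of summits were within 100 bp of a TSS. This held for 47.6% of the 1245 promoter sites called in the ADR list only and 49.3% of the 2379 called in the PBS list only, so the shared sites were closer by 17.0 points (95% interval 14.1 to 19.9) and 15.3 points (13.1 to 17.5). Conversely, 14.6% of the shared sites lay over 300 bp upstream, against 32.8% and 30.8% of the sites of 1 list. Windows with transcripts starting on both strands made up 16.6% of the shared sites and 7.31% and 8.53% of the others.

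**Figure D1:**
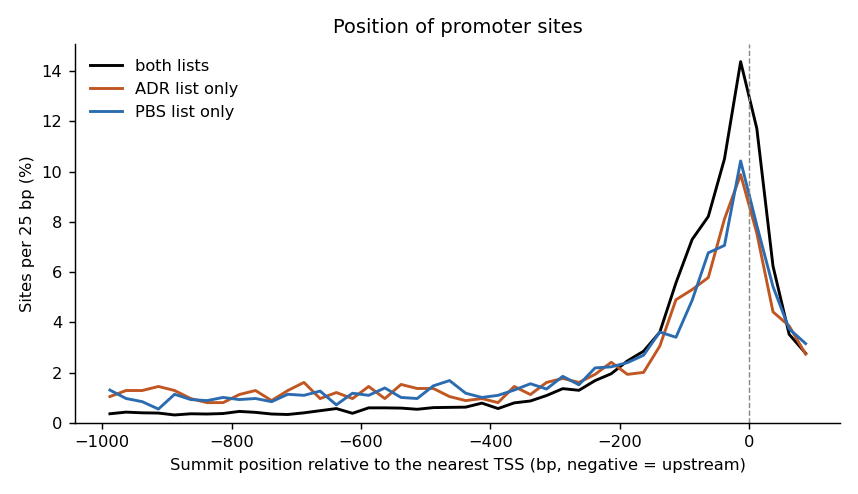
Position of the summit relative to the nearest TSS (x axis, bp, negative values upstream) against the share of sites per 25-bp bin (y axis, %) for promoter sites called in both lists, in the ADR list only and in the PBS list only. All 3 curves peak at the TSS, and the curve of the shared sites lies above the others there and below them over 300 bp upstream (14.6% against 32.8% and 30.8% of sites).

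The sites covered a large part of the protein-coding genes. A protein-coding gene was the nearest for 88.9% of sites, and 9286 of 21911 protein-coding genes (42.4%) had at least 1 site. Of these, 1022 had 2 sites, 176 had 3 and 46 had 4 or more. *Foxp1*, a forkhead TF gene with many alternative starts, had 7, *Plec* and *Tns1*, which encode a cytoskeletal linker and a focal adhesion protein, had 6 each, and *Synpo*, which encodes the podocyte actin-binding protein synaptopodin, was among the 10 genes with 5. The X chromosome held 195 sites, 1.84% of all, against 4.32% of protein-coding genes, and the Y chromosome held 0.

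CpG-rich sequence set the shared promoter sites apart from those of 1 list. In 201-bp windows around the summit the median GC content was 64.7%, against 57.2% for ADR-only and 58.7% for PBS-only promoter sites. The median ratio of observed to expected CpG was 0.795, against 0.457 and 0.534. Windows with at least 50% GC and a CpG ratio of at least 0.6 made up 73.2% of the shared sites, 39.6% of the ADR-only sites and 40.5% of the PBS-only sites, differences of 33.6 points (30.7 to 36.4) and 32.7 points (30.5 to 34.8). Peak strength differed as well: the median fold was 8.15 in the ADR list for shared sites, 5.10 for ADR-only and 4.98 for PBS-only sites, and its part in the sequence differences was not tested beyond the comparisons at a fold of at least 5 given with the alternatives.

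WT1-type sequence was the most frequent motif at the shared sites. A match lay within 100 bp of 39.4% of their summits (38.4% to 40.3%), against 26.4% of ADR-only sites, 28.7% of PBS-only sites and 16.3% of 12310 protein-coding promoters without a peak. The differences from the sites of 1 list were 12.9 points (10.3 to 15.5) and 10.7 points (8.58 to 12.7), and 11.0 and 7.51 points at equal GC content. Against promoters without a peak the difference of 23.0 points became 5.78 points at equal GC content. The string GNGGGGGNG is also matched by runs of G. With GNGTGGGNG alone the shares were 19.3%, 16.1%, 14.9% and 8.82%, and the differences from the sites of 1 list shrank to 3.18 points (0.910 to 5.27) and 4.45 points (2.78 to 6.02). Among all 21934 windows at the starts of protein-coding genes 23.2% held a WT1 match. Of the WT1 matches, 18.1% overlapped a KLF or GC box match, and EGR proteins bind similar sequence, so the factor is not identified by the letters.

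The classical elements of CpG-rich promoters were also more frequent at the shared sites. The GC box (GGGCGGGG) was present at 23.8%, against 11.7% of ADR-only and 11.4% of PBS-only sites, and these differences of 12.03 and 12.4 points became 6.36 and 6.37 points at equal GC content. The ETS core (CCGGAAG) was present at 13.3%, against 6.19% and 7.31%, with differences of 7.13 points (5.52 to 8.50) and 5.998 points (4.71 to 7.18). NFY sequences (CCAATC or CCAATG) were present at 20.4%, against 14.8% and 15.01%, but their share among promoters without a peak was about as large, 20.05%. KLF sequences (GGGTGTGG or GGGCGTGG) were present at 10.4%, against 7.47% and 6.05%, and the difference of 2.92 points from ADR-only sites became 0.64 points at equal GC content. Against promoters without a peak the GC box difference of 13.6 points became -4.64 points at equal GC content. Among all protein-coding promoter windows the shares were 19.5% for the GC box, 9.41% for ETS, 23.0% for NFY and 8.12% for KLF. NRF1 (GCGCATGC) and CRE (TGACGTCA) sequences were rarer, at 3.795% and 2.79% of the shared sites and at most 2.01% of the sites of 1 list.

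Forkhead, LMX1B and TEAD sequences were rarer at the shared sites than at the ADR-only sites before adjustment for GC content. The forkhead core TAAACA lay within 100 bp of 4.57% of the shared summits, of 10.8% of ADR-only and of 5.80% of PBS-only summits, and in 9.37% of promoters without a peak. The difference from the ADR-only sites was -6.27 points (-8.16 to -4.61), and -0.81 points at equal GC content. Against the PBS-only sites it was -1.23 points (-2.31 to -0.27) and took the opposite sign, 1.49 points, at equal GC content. Against promoters without a peak the difference of -4.80 points likewise became 1.11 points. LMX1B sequence (TTAATTA) lay at 0.519% of the shared sites and 3.37% of the ADR-only sites, a difference of -2.85 points (-4.02 to -1.97) that was -0.42 points at equal GC content. TEAD sequences (CATTCCA or CATTCCT) lay at 5.01% and 8.11%, a difference of -3.10 points that was -0.96 points at equal GC content. AP-1 sequence (TGAGTCA) lay at 2.43% of the shared sites, 1.69% of the ADR-only sites and 8.91% of the PBS-only sites, and the difference from the last was -6.48 points (-7.73 to -5.36), or -3.48 points at equal GC content. All protein-coding promoter windows held 7.11% forkhead, 1.76% LMX1B, 5.30% TEAD and 3.05% AP-1 matches. The TATA box (TATAAA) lay at 2.64% of the shared sites and 12.6% of promoters without a peak. The difference of -9.92 points was -2.39 points at equal GC content. Windows of protein-coding promoters were centered at -53 bp, whereas those of sites were centered at the summit. CTCF sequence lay at 0.689% of the shared sites and 2.19% of the PBS-only sites.

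**Figure D2:**
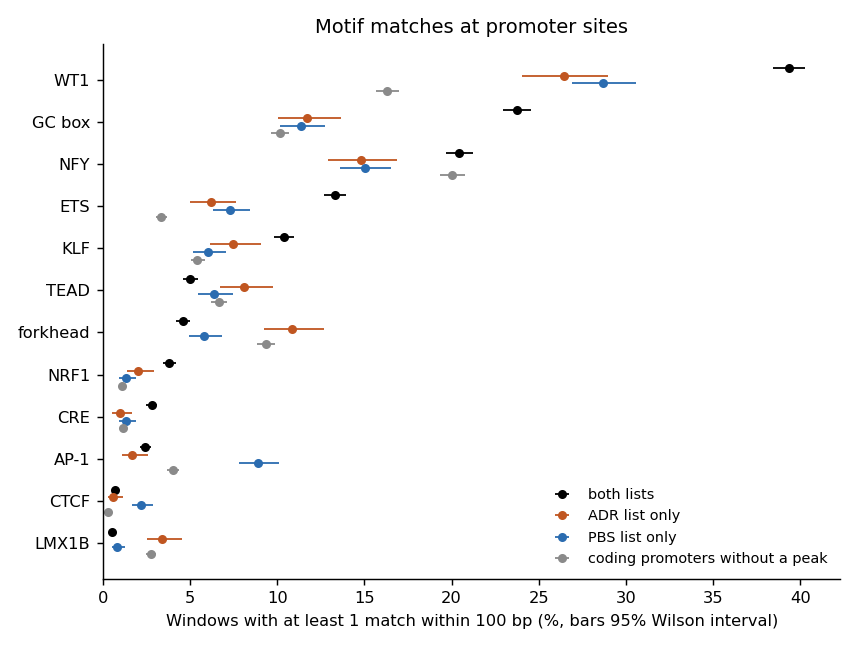
Share of 201-bp windows with at least 1 motif match (x axis, %, bars 95% Wilson intervals) for 12 motifs (y axis) in promoter sites called in both lists, in the ADR list only or in the PBS list only, and in protein-coding promoters without a peak. The shared sites lie to the right of the other 3 groups for WT1 (39.4%), GC box and ETS without adjustment for GC content (at equal GC content the GC box lies 4.64 points below promoters without a peak), and to the left of the ADR-only sites for forkhead (4.57% against 10.8%) and LMX1B.

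Within the shared sites the motifs were not spread evenly around the summit. Overlapping matches were joined and counted once. WT1 sequences reached 3.97 matches per kb within 25 bp of the ADR summit and 1.23 per kb at 200 to 290 bp, 3.24 times more. For CRE the center held 6.19 times the density of the flanks, for NRF1 4.65 times and for ETS 3.04 times. BANP, CTCF, E-box and KLF sequences had ratios of 3.97, 3.38, 3.19 and 3.06, so the WT1 ratio was not particular to it. The densities were not adjusted for GC content. Forkhead cores were instead less dense at the center than in the flanks (0.225 and 0.351 per kb), but the longer GTAAACA was not (0.0887 and 0.0876 per kb). LMX1B sequences were less dense at the center (0.0132 and 0.0608 per kb). AP-1 sequences had nearly the same density at both distances (0.127 and 0.121 per kb). The PBS summits gave a similar WT1 profile, with 3.86 matches per kb within 25 bp and 1.24 in the flanks.

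**Figure D3:**
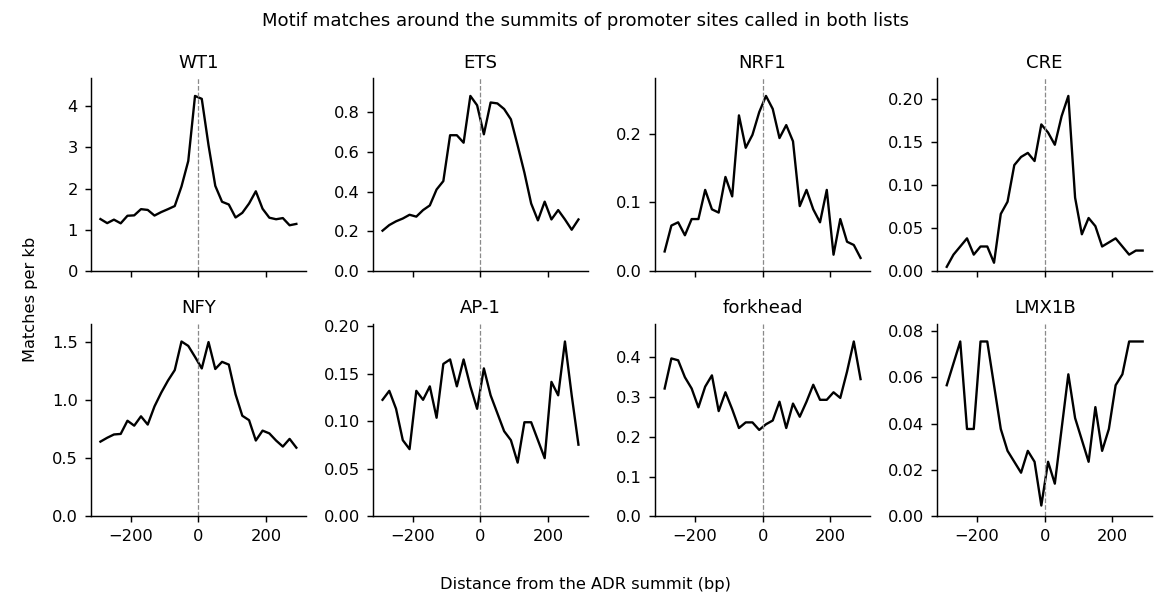
Density of matches (y axis, matches per kb, each panel with its own scale from 0) of 8 motifs by distance from the ADR summit (x axis, bp) over the 10592 promoter sites called in both lists. WT1 forms a narrow peak at the summit, ETS, NRF1, CRE and NFY broader ones, and forkhead a shallow dip (0.225 per kb within 25 bp, 0.351 per kb at 200 to 290 bp).

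As a whole, the folds at these promoters were similar in both lists. The median fold was 8.15 in the ADR list (quartiles 5.69 and 12.8) and 8.33 in the PBS list (6.01 and 13.2). Over all peaks of each list the median fold was 7.42 in ADR and 6.53 in PBS. By percentile rank within each list the promoter sites stood lower in ADR, with a median difference of -7.08 points. The median log2 ratio of the ADR fold over the PBS fold was -0.06 (quartiles -0.43 and 0.31, SD over sites 0.63). A site was counted as higher in a list when its fold there was at least 1.5 times that in the other. By this rule 1380 sites (13.0%) were higher in ADR and 1861 (17.6%) were higher in PBS. Over all 27112 shared peaks the same rules gave 23.7% and 18.3%. The share of promoter sites higher in ADR was thus below that of all shared peaks, and the share higher in PBS near it. These are descriptions, since both lists chose the sites.

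Sites outside promoters spread more widely. Among the 16520 shared peaks elsewhere the median log2 ratio was 0.13, and 30.6% were higher in ADR and 18.8% in PBS. In introns 32.2% were higher in ADR. Across sites the log folds of the lists had a Pearson correlation of 0.72 in promoters and 0.52 elsewhere. The sites share libraries and genome composition and are not independent replicates. The lists differ in scale at the top: the highest fold was 49.1 in the ADR list and 80.6 in the PBS list, and 93 promoter sites had PBS folds above the ADR maximum. With percentile ranks within each list in place of folds, 11.4% of promoter sites were at least 1.5 times higher in ADR and 26.1% in PBS, against 17.4% and 25.7% of all shared peaks. Shared peaks outside promoters had 21.3% and 25.4%, so by ranks more of them were higher in PBS than in ADR.

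**Figure D4:**
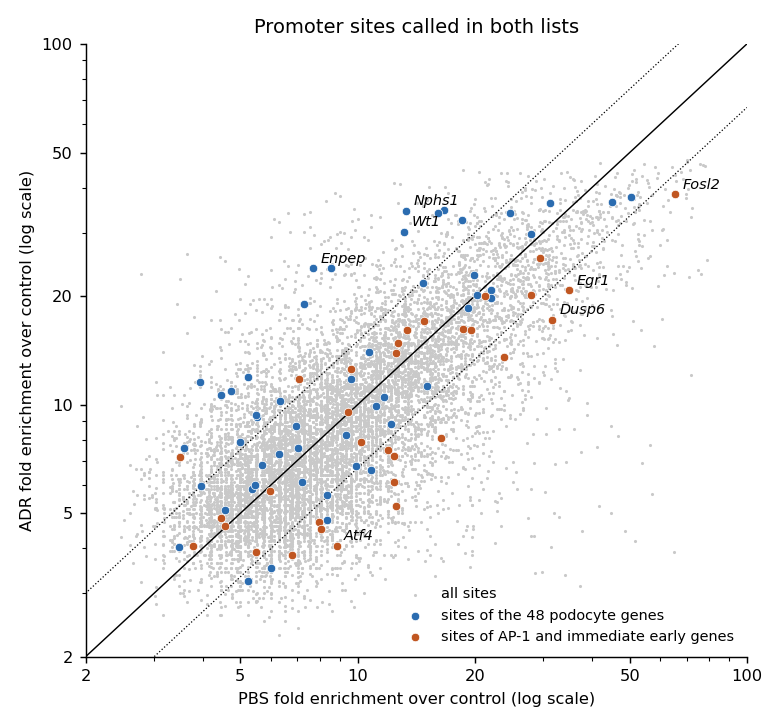
PBS fold (x axis, log scale) against ADR fold (y axis, log scale) of each promoter site called in both lists (grey), with the sites of the 48 podocyte genes in blue and of AP-1 and immediate early genes in orange. Some genes are labelled by name, the solid line marks equal folds and the dotted lines a ratio of 1.5. Blue points lie mostly on or above the line (18 of 51 past 1.5 times) and orange points mostly on or below it (13 of 32 past 1.5 times lower in ADR).

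Among the 10 sites with the highest ADR folds, 5 are given as examples. *Amotl2*, which encodes an angiomotin of the Hippo pathway, had the highest ADR fold, 47.7, with 70.0 in PBS and its summit 0 bp from the TSS. *Mrc2*, a collagen receptor gene, had 47.1 in ADR and 70.0 in PBS. The chromatin reader gene *Brd2* had 46.2 and 77.3, *Naa60*, an acetyltransferase gene, 45.9 and 78.0, and *Tns2*, the tensin gene mutated in a mouse model of nephrotic disease, 44.8 and 51.3. These 5 promoters stood near the ceiling of the ADR list. In PBS the highest folds were at *Gm13421* (78.8, with 25.2 in ADR), *Naa60*, *Brd2* and *Thumpd3* (75.7, with 46.5). At *Bhlhe40*, a clock repressor gene, the PBS fold was 74.9 and the ADR fold 23.6. The PBS folds of *Gm13421* and *Bhlhe40* were thus over 3 times the ADR folds, and their summits in the lists coincided within 6 bp.

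The sites with the largest ratios in favour of ADR had low PBS folds, which ranking by this ratio favours. *Marc2*, which encodes a mitochondrial reductase, had 2.77 in PBS and 23.0 in ADR (log2 ratio 3.05). *P3h1*, a collagen prolyl hydroxylase gene, had 3.64 and 26.2 (2.85), and *Tead4*, a TF gene of the Hippo pathway, 4.42 and 25.7 (2.54). *1700067G17Rik* had 3.49 and 22.3 (2.68). *Mob2* (2.47), *Rab44* (2.46), *Aebp1* (2.42), *Sgms1* (2.36), *Bend5* (2.36) and *Gfod2* (2.28) followed. Forkhead cores lay within 100 bp of the summits at *Bend5* and *Gfod2*. The PBS folds of these 10 promoters lay between 2.77 and 6.61, below the median of 8.33 for all sites. As ADR folds ended at 49.1, the choice by ratio largely fixed this, and it is no separate result.

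The smallest ratios were at first dominated by pairs with distant summits. At *Midn* the ADR fold of 3.91 was paired with a PBS fold of 64.9 whose summit was 2531 bp away, and at *Kdm2a* (4.19 and 51.7) the distance was 955 bp. Pairs with summits within 200 bp were therefore examined, a choice made after seeing the data. Among these 9872 sites 13.3% were higher in ADR and 16.6% in PBS, against 24.3% and 17.6% of all shared peaks with summits within 200 bp. The smallest ratios were then at *Osmr*, which encodes the oncostatin M receptor (3.45 in ADR, 29.8 in PBS, log2 ratio -3.11), *Clic1*, a chloride channel gene (4.02 and 31.3, -2.96), *Gm27782* (4.87 and 32.9, -2.76), *Mir145a*, the gene of the smooth muscle microRNA miR-145a (7.64 and 41.2, -2.43), and *Hic1*, a transcriptional repressor gene (8.75 and 44.7, -2.35). The summits at *Gm27782*, *Mir145a* and *Hic1* were within 46 bp of each other in the lists.

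The ratio varied with position and sequence within the shared sites. Sites at 1000 to 751 bp upstream were higher in ADR in 23.2% of cases, sites at 50 to 1 bp upstream in 11.3%, and the shares higher in PBS were 20.5% and 17.3%. Among pairs with summits within 200 bp, 10.9% of the CpG-rich sites and 19.7% of the others were higher in ADR, and 15.6% and 19.4% higher in PBS. Sites that were CpG-poor and over 300 bp upstream reached 25.5%, near the 24.3% of all shared peaks, with 19.7% higher in PBS (17.6% of all shared peaks). Those that were CpG-poor but within 100 bp of a TSS had 17.0%, with 19.0% higher in PBS.

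Several motifs differed in share between sites higher in ADR and sites higher in PBS. With summits within 200 bp, WT1 sequence lay at 39.5% of the sites higher in ADR and 45.4% of those higher in PBS, a difference of -5.94 points (-9.50 to -2.35), which was 0.63 points with GNGTGGGNG alone. AP-1 sequence lay at 1.91% of the 1309 sites higher in ADR and 4.20% of the 1642 sites higher in PBS, a difference of -2.29 points (-3.54 to -1.05). LMX1B sequence lay at 1.22% (16 sites) and 0.122% (2 sites), a difference of 1.1005 points (0.532 to 1.86). TEAD sequence lay at 7.94% and 5.12% (2.83 points, 1.04 to 4.69). ETS (10.7% and 14.8%) and NFY (16.0% and 20.7%) were less frequent at the sites higher in ADR. Forkhead cores lay at 6.19% and 4.57%, and the interval of that difference included 0 (-0.01 to 3.32 points). Because the ratio itself comes from the lists that chose the sites, these intervals describe the sites and cover counting error only.

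The sites with an AP-1 sequence stood out most toward PBS. The 243 such sites had a median ADR fold of 8.29 and PBS fold of 10.03, with a median log2 ratio of -0.27, and 28.4% of them were higher in PBS. The 50 sites with an LMX1B sequence had medians of 8.39 and 7.27, a median log2 ratio of 0.16, and 32.0% of them were higher in ADR. The 99 sites with a GC content below 45% likewise had a median log2 ratio of 0.22, with 26.3% higher in ADR. The LMX1B values were not adjusted for GC content, and its part was not tested. Of the CpG-poor sites with a forkhead core 26.5% were higher in ADR, near the 24.3% of all shared peaks, and 19.1% of those without the core. Of the CpG-rich sites with the core 10.1% were, and of all CpG-rich sites 10.9%.

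Genes characteristic of podocytes were often among the bound promoters. A list of 48 podocyte genes was taken from the study, which also examined FOXC2 binding at them, so the counts are no independent evidence. Of the 48 genes, 38 (79.2%, 65.7% to 88.3%) had a site, against 42.4% of all protein-coding genes. Their 51 sites had median folds of 10.6 in ADR and 8.53 in PBS, and a median log2 ratio of 0.22 (-0.06 over all sites). Of the 51 sites, 18 were higher in ADR and 4 higher in PBS, 35.3% and 7.84%, against the 23.7% and 18.3% of all shared peaks. With percentile ranks the counts were 11 and 7. The first share was above, and the second below, the 17.4% and 25.7% of all shared peaks by rank. All promoter sites called in both lists had 13.0% and 17.6% by folds and 11.4% and 26.1% by ranks. The 10 genes without a site were *Tdrd5*, *Tcf21*, *Pth1r*, *Npnt*, *Tmem150c*, *Iqgap2*, *Igfbp7*, *Rab3b*, *Clic3* and *Shisa3*, 5 of which had a promoter site in the ADR list only and 0 in the PBS list only. Of all 21911 protein-coding genes, 564 without a shared site had an ADR-only promoter site and 1115 a PBS-only one.

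Slit diaphragm genes, other podocyte genes and 1 basement membrane promoter were among the sites higher in ADR. The examples were selected by their values, and not all such sites are given. *Nphs1*, which encodes nephrin, the main slit diaphragm protein, had folds of 34.5 in ADR and 13.4 in PBS at -163 bp. Another site at -434 bp had 19.0 and 7.30, and it also lay at -191 bp of the neighbouring *Kirrel2*, which encodes a nephrin relative. *Enpep*, a podocyte surface peptidase gene, had 23.9 and 7.68, though with summits 439 bp apart. *Pard3b*, a cell polarity gene, had 23.9 and 8.53, and *Ptpro*, a podocyte phosphatase gene, 10.6 and 3.57. The promoter shared by *Col4a3* and *Col4a4*, which encode collagen IV chains of the mature basement membrane, had 34.7 and 16.7. All of these folds in ADR were at least 2 times those in PBS.

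At other podocyte and glomerular disease genes the folds were closer, higher in PBS or differed in direction between sites of the gene. The strongest *Synpo* site, at -40 bp, had 37.6 in ADR and 50.4 in PBS. Its other sites were weaker and went both ways. They had 7.61 in ADR and 3.57 in PBS at -28 bp, and 8.71 and 6.93 at -916 bp. At -11 bp the folds were 6.78 and 9.88, and at -783 bp 6.61 and 10.8. *Podxl*, which encodes the glycocalyx protein podocalyxin, had 21.8 and 14.7, a ratio of 1.48. *Cd2ap*, a slit diaphragm adaptor gene, had 25.9 and 24.9. *Nes*, an intermediate filament gene, had 22.9 and 19.9, and *Mertk*, a receptor tyrosine kinase gene, 19.8 and 22.01. *Actn4*, the podocyte actinin gene, had a site at each of 3 alternative starts, with 19.5 and 12.7, 18.8 and 21.8, and 8.41 and 21.5, so 1 site was higher in ADR and 1 higher in PBS. At *Lamb2*, the laminin chain gene of the glomerular basement membrane, both sites were higher in PBS (10.4 and 17.2, and 9.14 and 29.0).

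TF genes of podocytes were bound as well. Of 20 listed, 16 had a site, with 21 sites in all, 6 higher in ADR (28.6%, near the 23.7% of all shared peaks) and 1 higher in PBS (4.76%, against 18.3%), and their median log2 ratio was -0.01. By percentile ranks the counts were 2 and 1, and both shares were below the 17.4% and 25.7% of all shared peaks. For all promoter sites called in both lists the shares were 13.0% and 17.6% by folds, and 11.4% and 26.1% by ranks. The strongest *Wt1* site, at -60 bp, had 30.1 in ADR and 13.2 in PBS, while sites at 2 other starts had 8.23 and 9.36, and 3.25 and 5.23. *Foxc2* itself had a weak site with 5.14 and 5.23, and *Foxc1*, its paralog, 18.6 and 11.2. *Lmx1b* had 28.4 and 30.5 at its stronger site and 8.47 and 4.16 at another. *Klf6* had 29.0 and 35.4 and *Wwtr1*, the TAZ gene, 27.9 in both. *Tead1* had 17.9 and 10.9. *Foxd1*, *Tcf21*, *Osr1* and *Foxl1* had no site.

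Glomerular disease genes were also often bound. Of 52 matched genes, 38 had a site (73.1%, 59.7% to 83.2%), with 13 of 46 sites higher in ADR and 4 higher in PBS (6 and 5 by percentile ranks). The shares by folds, 28.3% and 8.70%, stand beside 23.7% and 18.3% of all shared peaks. By percentile ranks both shares were below the 17.4% and 25.7% of all shared peaks. Promoter sites called in both lists had 13.0% and 17.6% by folds. By ranks they had 11.4% and 26.1%, so the ADR share of these genes was not below that of promoter sites. *Magi2*, a slit diaphragm scaffold gene, had 34.4 and 19.4, *Itga3*, the integrin of podocyte foot processes, 26.5 and 14.3, and *Inf2*, a formin gene, 32.1 and 31.0 at its stronger site. The nucleoporin genes *Nup93*, *Nup107*, *Nup133* and *Nup205* had log2 ratios between -0.29 and -0.06. *Trpc6* and *Plce1* were among the 14 genes without a site.

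By folds, immediate early and p53 target genes leaned toward PBS. Of 25 AP-1 and immediate early genes, 23 (92.0%) had a site, and of their 32 sites 2 were higher in ADR and 13 higher in PBS (6.25% and 40.6%, against 23.7% and 18.3% of all shared peaks). Promoter sites at all protein-coding genes had 12.6% and 17.3%. The median log2 ratio of the 32 sites was -0.33, and by percentile ranks their counts were 1 and 10. By percentile ranks all shared peaks had 17.4% higher in ADR and 25.7% higher in PBS. Examples chosen after their values were seen are *Fosl2*, an AP-1 subunit gene (38.3 in ADR, 65.4 in PBS), *Egr1*, a zinc finger TF gene (20.7 and 34.9), *Dusp6*, an ERK phosphatase gene (17.2 and 31.6), and *Spry2*, a feedback inhibitor gene of receptor tyrosine kinases (8.08 and 16.3). *Ier2* went the other way with 7.17 and 3.49, and *Jund* had 25.5 and 29.5. Of 23 p53 target genes, 20 had a site, with 2 of 23 sites higher in ADR and 8 higher in PBS (8.70% and 34.8%, against 23.7% and 18.3%), and 1 and 7 by percentile ranks. At *Cdkn1a*, a cell cycle inhibitor gene, the folds were 5.28 and 19.7, and at *Plk2*, a kinase gene, 29.5 and 54.3.

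Actin and focal adhesion genes had sites in 28 of 31 cases, with 11 of 45 sites higher in ADR and 7 higher in PBS. These shares of 24.4% and 15.6% were near the 23.7% and 18.3% of all shared peaks. By percentile ranks the counts were 3 and 9, where all shared peaks had 17.4% and 25.7%. Among all promoter sites called in both lists 13.0% and 17.6% were higher in ADR and PBS by folds, and 11.4% and 26.1% by ranks. Examples chosen after their values were seen follow. *Parva*, which encodes a parvin of the integrin complex, had a site at -524 bp with 23.7 in ADR and 4.95 in PBS, and *Lims1*, its partner PINCH, 24.8 and 12.4, whereas *Ilk*, the kinase of the same complex, had 3.73 and 13.5 at its upstream site. Basement membrane genes had sites in 14 of 20 cases, with 2 of 14 sites higher in ADR and 3 higher in PBS (14.3% and 21.4%), and 0 and 5 by percentile ranks. Circadian clock genes had sites in 15 of 18 cases, with 7 of 23 sites higher in ADR and 5 higher in PBS (30.4% and 21.7%, against 23.7% and 18.3%), and 3 and 4 by percentile ranks. *Dbp*, an output TF gene of the clock chosen after its values were seen, had 27.1 and 8.80 at 1 site, with summits 216 bp apart, and 27.3 and 19.5 at the other.

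Housekeeping genes were bound at high rates and with nearly equal folds. A site was present at 72 of 83 cytosolic ribosomal protein genes (86.7%), 70 of 80 respiratory chain genes (87.5%), 30 of 39 proteasome genes (76.9%), 28 of 35 aminoacyl-tRNA synthetase genes (80.0%) and 42 of 55 translation initiation factor genes (76.4%). Their median log2 ratios lay between -0.07 and 0.05. Of the 45 initiation factor sites 0 were higher in ADR, against 23.7% of all shared peaks, and 9 higher in PBS, near the 18.3%. By percentile ranks the counts were 3 and 11, where all shared peaks had 17.4% and 25.7%. At ribosomal protein, respiratory chain, proteasome and synthetase genes 10.4%, 10.5%, 9.38% and 10.7% of sites were higher in ADR. The shares higher in PBS were 16.9%, 14.5%, 6.25% and 7.14%. Sites at all protein-coding genes had 12.6% and 17.3%. ETS sequence lay within 100 bp of 37.5% of the proteasome sites and 26.0% of the ribosomal protein sites, against 13.9% of sites at all protein-coding genes, and WT1 sequence at 50.98% of the podocyte gene sites and 12.5% of the proteasome sites, against 39.0%. A high WT1 share was not particular to podocyte genes. It was 65.6% at AP-1 and immediate early genes and 57.1% at basement membrane genes. At ribosomal protein genes it was 36.4%, and at glomerular disease genes 32.6%. The rates of binding at the housekeeping lists and at the podocyte genes had overlapping intervals, so the presence of a shared promoter site did not separate podocyte genes from housekeeping genes.

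Sites were also counted at markers of other cell types and in large gene families. Among markers of other cells a site was found for 3 of 10 endothelial, 6 of 9 mesangial, 4 of 10 proximal tubule, 1 of 9 distal tubule and collecting duct, 0 of 9 immune and 3 of 10 neuron and muscle genes. The mesangial share (66.7%) was above the 42.4% of all protein-coding genes and the others were below it. With 0 of 9, the Wilson interval for immune markers reached 29.9%. The podocyte markers *Nphs1*, *Podxl*, *Synpo* and *Wt1* each had a site, although 10 of the 48 podocyte genes had none. The endothelial markers *Pecam1*, *Cdh5*, *Emcn* and *Tie1* had none and *Ehd3*, *Plvap* and *Kdr* had a site each, that at *Kdr* with 4.73 and 3.18. Of these 3 endothelial sites, 0 were higher in ADR and 2 higher in PBS, where all shared peaks had 23.7% and 18.3%. Their median log2 ratio was -0.76. The mesangial marker *Des* had 24.98 and 52.5. Of 1092 olfactory receptor genes 1 had a site, of 326 vomeronasal receptor genes 1, of 49 keratin genes 2, and of 365 Zfp zinc finger genes 192 (52.6%).

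**Figure D5:**
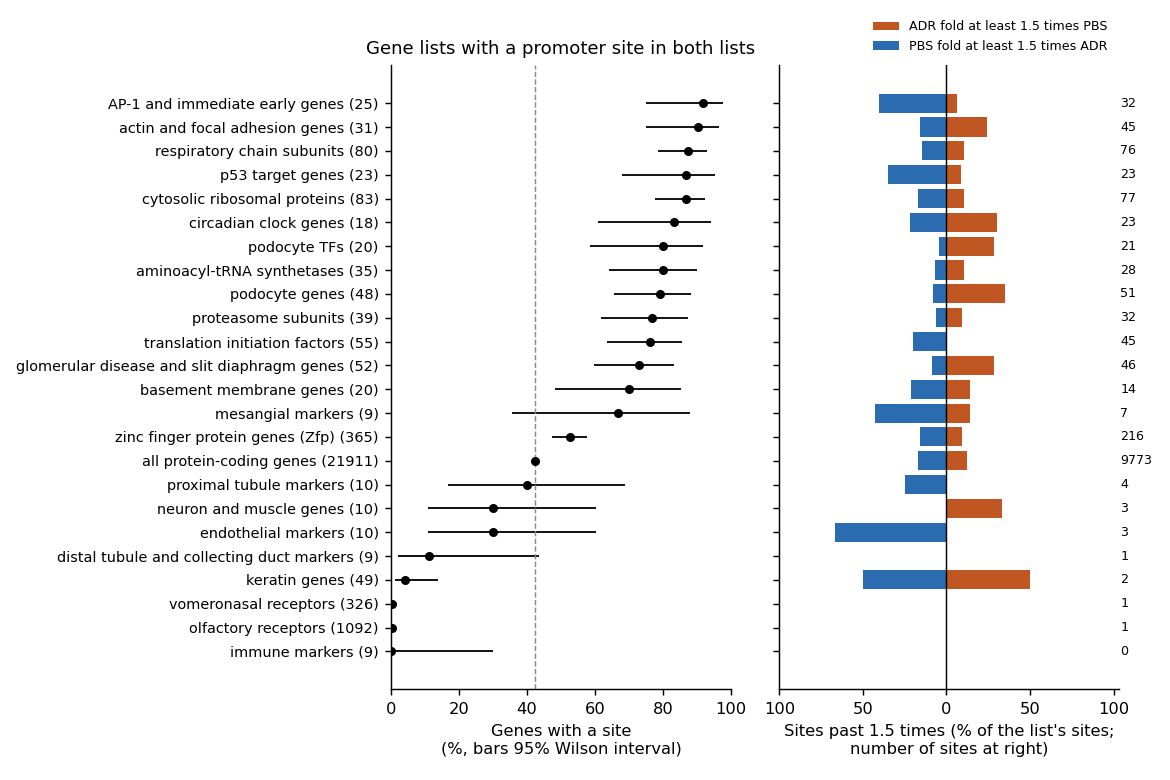
Left, the share of genes in each list with a promoter site called in both lists (x axis, %, bars 95% Wilson intervals, number of genes in parentheses), with a dashed line at the 42.4% of all protein-coding genes. Right, the share of each list's sites with an ADR fold at least 1.5 times the PBS fold (orange) or the reverse (blue), the number of sites at the right edge, where podocyte genes lean to ADR (18 and 4 of 51) and AP-1 and immediate early genes to PBS (2 and 13 of 32).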

How the data were processed

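FOXC2 ChIP-seq of sorted podocytes was available as 2 pooled peak lists, 1 for ADR and 1 for PBS. Per the methods of the authors, 50-bp single-end reads were trimmed and mapped to GRCm38, narrow peaks came from nf-core/chipseq, and the 3 samples of a condition were combined. Neither the peak caller's version nor its cutoff is given in the sources used here, and read depth is unknown. As deposited by the authors, each peak has positions, a summit, a fold enrichment (a ratio over the local control), a display score and −log10 p and q values. The score and p-value were not used, and no per-sample column was left over (0).

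Summits were classified against GENCODE M21 in the order promoter, transcript end, exon, intron and intergenic. Motif windows were 201 bp, and GC-adjusted differences were standardised over bins of 5 points. Shares have 95% Wilson intervals and differences of shares have Newcombe intervals, both for counting error only. Python 3.11.15, NumPy 2.4.6, pandas 2.3.3, SciPy 1.17.1, matplotlib 3.10.9 and pysam 0.24.0 were used, and the code was checked on simulated data.

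The sites and gene lists were chosen with earlier results of these data known. Named were the 10 sites with the highest fold in each list, the 10 largest and 10 smallest ratios, the sites at the rule's limits, and sites of the podocyte, podocyte TF and glomerular disease lists. Alternatives changed the promoter window, the starts, the overlap, the strength, the scale and the motif windows. The study's WT1 ChIP-seq and RNA-seq were not analysed here. Some named sites and sequences are not reported here.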

Additional observations from a re-analysis of the deposited data

How the results depend on the processing

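No paired analysis was possible because the samples of each condition were pooled into 1 list, and for the same reason no sample could be left out. Of 228 alternatives, 140 stayed within the interval of the reported value or, for the number of sites, within 1.5 times it. Another 86 moved beyond that, and 2 reversed the sign of a value whose interval excluded 0. Sign changes of differences whose interval included 0 were not counted as reversals. The comparisons with promoters without a peak were not among these alternatives. The causes of these shifts were not tested. The share of sites higher in ADR was 13.8% with 1 kb on each side of the TSS, 12.3% with a shorter reach upstream, 11.9% with protein-coding starts, 12.01% with gene record starts, 12.2% with −log10 q of at least 5, 11.0% with folds of at least 5, 11.7% after centering on all shared peaks, 11.4% by percentile rank and 4.33% at a fold of 2. The share higher in PBS was 16.7% with gene record starts, 16.2% with 50% overlap, 16.6% with summits within 200 bp, 15.7% with −log10 q of at least 5, 14.8% with folds of at least 5, 16.8% with unique pairs (added after seeing the data), 19.2% after centering, 26.1% by rank and 5.84% at a fold of 2. The median log2 ratio was -0.047 with −log10 q of at least 5 and -0.10 after centering, and the median rank difference was -7.08 percentile points. The median distance was -20 bp with 1 kb on each side, -42 bp with the shorter reach, -56 bp with protein-coding starts or PBS summits and -60 bp with gene record starts.

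The WT1 difference from ADR-only sites was 3.18 points with GNGTGGGNG alone (added after seeing the data), and that from PBS-only sites was 4.45 points with it, 7.51 at equal GC content and 7.38 with folds of at least 5. The forkhead difference from ADR-only sites was -3.58 points with windows of 50 bp to each side, -0.81 at equal GC content, -9.44 with folds of at least 5, -1.76 for GTAAACA and -4.09 for sites within 100 bp of a TSS (added after seeing the data). At equal GC content the differences from PBS-only sites reversed, to 1.49 points for forkhead and 0.46 points for TEAD sequences. With gene record starts 54.2% of the podocyte genes and 31.8% of all protein-coding genes had a site, and 37.1% of the latter with −log10 q of at least 5.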
